A study of Mus musculus with 8 samples.

Results

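The ectodysplasin pathway and its partners in hair placodes were followed through 9 genes, Eda, Edar, Edaradd, Eda2r, Tnfrsf19, Traf6, Dkk4, Fgf20 and Lef1, in the back skin epidermis of newborn mice. They were taken by name, as every non-control probe whose RefSeq accession belongs to one of these symbols. This gave 15 probes among the 36799 genes and other targets on the array, of which 21154 have a gene symbol. Of the 9 genes, 8 had a probe bright enough to be tested and Eda2r did not. The samples came from C57BL/6 pups at P0, with 4 in each genotype, EED cKO and control. In the former, Cre under the Krt14 promoter, which is active in epidermal progenitors of the embryo, removes floxed Eed, a subunit of the Polycomb repressive complex PRC2. Eed is thus lost from keratinocytes and the cells that descend from them, not from dermis or immigrant cells. The labels name the control mice only as such, without their alleles. Each RNA was hybridised to an array of its own against Universal Mouse Reference RNA, a commercial mix of mouse RNA. The sample was in Cy3 on replicates 1 and 3 and in Cy5 on replicates 2 and 4 of each genotype.

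Ectodysplasin (Eda) is a ligand of the tumor necrosis factor family that is cut from the surface of epidermal cells and binds its receptor Edar in hair placodes, the thickenings of embryonic epidermis from which follicles grow. Edar has a death domain that recruits the adaptor Edaradd, which brings in Traf6 and the kinases that release NF-kB. Wnt signaling through Lef1 lies upstream of and beside this pathway, and Dkk4 and Fgf20 are secreted factors made in placodes. Mutations in Eda, Edar or Edaradd cause hypohidrotic ectodermal dysplasia, with sparse hair and missing teeth and sweat glands.

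Of the 8 tested genes, 6 were lower in EED cKO epidermis than in control at an adjusted p below 0.05 (limma), namely Edaradd, Tnfrsf19, Lef1, Fgf20, Dkk4 and Edar. Their levels lay between 57.2% and 70.5% of control. None was lower by 2-fold or more, and none was higher. The ligand gene Eda did not pass the test, at 93.7% of control, and neither did Traf6, at 74.2%. For comparison, 9.88% of the 23238 targets tested were lower in EED cKO, 11.8% were higher, and 21.6% were called in either direction. A called change of at least 2-fold was found in 1.2%. The median difference of the 8 genes on the log2 scale was -0.68, against 0.02 over all tested targets. At an unadjusted p below 0.05, 7 of the 8 were lower and 0 higher, and the share of all targets at that limit is not given here. The methods' t-test after Benjamini-Hochberg adjustment called 1 lower and 0 higher. It called 914 of all 23238 targets, 34.9% of them lower. The RNA came from whole epidermis, so fewer cells that express a gene cannot be told apart from less of its RNA per cell.

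Promoters are shown because the 6 called genes moved in the same direction and because Lef1, itself among them, and NF-kB bind known short motifs. Of these 6 genes, Dkk4 and Fgf20 had no promoter window to search, and the other 4 are printed. Each window is RefSeq sequence of GRCm38.p6, from 250 bases before to 50 bases after an annotated start, printed 5′ to 3′ on the gene's strand. Capitals mark the Lef/Tcf motif, CTTTG followed by 2 letters of A or T, found on either strand.
Edar, chr10:58675647-58675946, minus strand: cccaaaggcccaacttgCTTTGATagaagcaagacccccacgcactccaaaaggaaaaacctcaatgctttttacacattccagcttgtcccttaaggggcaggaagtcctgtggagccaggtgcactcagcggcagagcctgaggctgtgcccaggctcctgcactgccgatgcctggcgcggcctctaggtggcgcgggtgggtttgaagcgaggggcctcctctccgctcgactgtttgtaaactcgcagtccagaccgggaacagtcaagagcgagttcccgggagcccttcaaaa
Edaradd, chr13:12520401-12520700, minus strand: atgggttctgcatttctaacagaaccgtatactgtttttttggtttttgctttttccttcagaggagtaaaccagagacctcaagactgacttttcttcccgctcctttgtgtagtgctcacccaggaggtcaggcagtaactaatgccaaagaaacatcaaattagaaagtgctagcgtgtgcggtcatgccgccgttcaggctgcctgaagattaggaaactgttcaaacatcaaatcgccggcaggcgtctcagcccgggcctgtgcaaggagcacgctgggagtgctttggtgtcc
Tnfrsf19, chr14:61037938-61038237, minus strand: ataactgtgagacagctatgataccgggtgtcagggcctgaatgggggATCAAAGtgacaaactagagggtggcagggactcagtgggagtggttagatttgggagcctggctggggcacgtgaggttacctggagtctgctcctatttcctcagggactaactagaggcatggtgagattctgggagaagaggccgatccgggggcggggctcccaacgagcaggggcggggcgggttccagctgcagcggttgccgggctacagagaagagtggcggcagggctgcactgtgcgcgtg
Lef1, chr3:131110047-131110346, plus strand: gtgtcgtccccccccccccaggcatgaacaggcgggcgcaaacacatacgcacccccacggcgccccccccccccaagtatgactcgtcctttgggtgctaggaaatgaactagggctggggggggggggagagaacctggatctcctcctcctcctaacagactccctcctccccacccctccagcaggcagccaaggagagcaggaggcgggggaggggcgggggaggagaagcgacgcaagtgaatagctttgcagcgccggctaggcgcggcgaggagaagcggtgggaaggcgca

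The Edar window held the motif at -233 to -227 from the start, as CTTTGAT. The Tnfrsf19 window held it on the other strand at -202 to -196, and the second Tnfrsf19 start, chr14:61046806-61047105, had no match. The printed Edaradd and Lef1 windows had none. Of the other 3 Lef1 starts, the most downstream, chr3:131156044-131156343, held 1 match at -147 to -141. Windows existed for 7 of the 9 genes, 11 windows in all, and 3 of the 11 held the motif, against 16.9% of all 32851 windows of this length. The NF-kB consensus was found on either strand in 0 of the 11 windows, against 8.46% of all windows. The arrays measured RNA only, so no value here bears on binding at these sites.

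The targeted gene was checked first. The log2 ratio of sample over reference for Eed was -0.35 ± 0.13 in control and -1.80 ± 0.17 in EED cKO (SD, n = 4), a difference of -1.46 (SE 0.09, adjusted p = 2.12e-05, limma). Whether the probe lies in the deleted part of Eed is not known here. Basal keratinocyte markers were well above background on every array, and Krt5, Krt14, Krt15 and Trp63 differed between the genotypes by 0.04 to 0.17 with adjusted p of 0.211 to 0.756, while 2 of the 6 basal markers were lower, Itga6 (-0.74) and Col17a1 (-0.33). All 8 arrays were on 1 slide, read in 1 scan, with EED cKO in the first slide row and control in the second, so slide row and genotype cannot be told apart. No spot was saturated, and the share of probes well above background in the sample channel ran from 51.5% to 65.5%.

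The ligand gene Eda lies on the X chromosome. Its log2 ratio was 1.39, 1.48, 1.47 and 1.46 on the control arrays, in the order of the replicate numbers, and 1.12, 1.66, 1.29 and 1.35 on the EED cKO arrays. The EED cKO arrays lay on both sides of the control arrays, with replicate 2 the highest of all 8, and the groups overlapped. The difference was -0.09 (SE 0.09, 95% interval -0.30 to 0.11, adjusted p = 0.514, limma), and the exact permutation test over the 8 arrays gave p = 0.457, two-sided. A second Eda probe, named by another RefSeq transcript, was well above background on 1 EED cKO array and no control array.

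The receptor gene Edar was lower in EED cKO. Control arrays gave log2 ratios of 0.69, 1.24, 0.85 and 1.16, and EED cKO arrays gave 0.44, 0.55, 0.45 and 0.48. The highest EED cKO array lay below the lowest control array, and the EED cKO arrays spread less (SD 0.05 against 0.26). The level was 70.5% of control, a log2 difference of -0.50 (SE 0.09, adjusted p = 0.00483). The probe was dim, with a median spot intensity of 38 to 85 in the sample channel, but was well above background on all 8 arrays there and on none in the reference channel. For so dim a probe the background correction, which adds an offset of 50 to each channel, draws ratios toward 0. Under the log ratio of Feature Extraction, which has no such offset, the difference was -1.37, more than 2-fold. With an offset of 16 in the same correction it was -0.80, and with neither background correction nor offset it was -0.63. What set these values apart was not tested.

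Edaradd, the adaptor that binds the death domain of Edar, was lower in EED cKO. Its log2 ratio was 1.49, 1.99, 1.59 and 1.59 in control and 1.02, 1.01, 0.84 and 0.57 in EED cKO. Every EED cKO array lay below every control array. This was 57.2% of control, with a log2 difference of -0.81 (SE 0.13, adjusted p = 0.00376). Under the log ratio of Feature Extraction the difference was larger, -0.96, and no longer called (adjusted p = 0.178). A second Edaradd probe was also lower on every EED cKO array, at -0.21, which did not pass (adjusted p over probes = 0.0763), and the mean over both probes differed by -0.51 (adjusted p = 0.00757).

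Traf6, the ubiquitin ligase that passes the signal from Edaradd to the kinase complex, did not pass the test. It read -0.04, 0.42, -0.04 and -0.07 on the control arrays and -0.23, -0.07, -0.51 and -0.63 on the EED cKO arrays. The groups did not overlap, but EED cKO replicate 2 at -0.072 was next to control replicate 4 at -0.065, and control replicate 2 stood well above the other control arrays. The log2 difference was -0.43 (SE 0.14, 95% interval -0.76 to -0.11, adjusted p = 0.0604). With the replicate number as a block in place of the dye, Traf6 was called (adjusted p = 0.00812), which made 7 of 8 genes lower. It was also called without EED cKO replicate 2, at -0.52 (adjusted p = 0.0418), and with the sample channel alone, at -0.48 (adjusted p = 0.0328). Under the log ratio of Feature Extraction and in the deposited table, which hold nearly the same values, it was called at -0.69 (adjusted p = 0.049).

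Among the further receptors, Tnfrsf19 (Troy), a relative of Edar expressed in hair follicle and other epithelial progenitors, was lower in EED cKO. Its log2 ratio was 4.02, 4.79, 4.13 and 4.40 in control and 3.56, 3.83, 3.42 and 3.36 in EED cKO. The genotypes did not overlap, and in each of them replicate 2 was the highest. EED cKO stood at 57.7% of control, a log2 difference of -0.79 (SE 0.14, adjusted p = 0.00431). A second Tnfrsf19 probe differed by -0.23 and overlapped between the genotypes (adjusted p over probes = 0.0655), and the mean over both probes differed by -0.51 (adjusted p = 0.00847). In the reference channel, which holds the same RNA on every array, the first probe was also lower on the EED cKO arrays, at -0.18 (adjusted p = 0.127), and the sample channel alone gave -0.97. Eda2r, the X-linked receptor that binds another isoform of Eda than Edar does, was not well above background in the sample's channel on any array with either of its 2 probes, so neither genotype has a measured level.

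Lef1, the partner of beta-catenin through which Wnt signals act in placodes and hair matrix, was lower in EED cKO with both of its probes. The brighter probe read 0.93, 1.40, 0.60 and 1.08 in control and 0.32, 0.42, 0.13 and 0.12 in EED cKO. The lowest control array, replicate 3, still lay above the highest EED cKO array, replicate 2. The level was 59.2% of control, with a log2 difference of -0.76 (SE 0.13, adjusted p = 0.00438). The other probe differed by -0.90 (adjusted p over probes = 0.00272). Lef1 was bright, with a median spot intensity of 637 to 4695 in the sample channel, and its reference channel differed between EED cKO and control arrays by -0.29 (adjusted p = 0.357). The sample channel alone gave -1.04.

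The secreted factors Dkk4 and Fgf20 both read lower in EED cKO, with the 2 largest standard errors of the 8 genes. Dkk4, a Wnt antagonist of placodes, had log2 ratios of 1.77, 1.96, 1.80 and 2.55 in control and 1.496, 1.152, 1.627 and 1.108 in EED cKO. The groups did not overlap, and control replicate 4 was the highest array. The difference was -0.67 (SE 0.19, adjusted p = 0.0301), or 62.7% of control. The call for Dkk4 was lost without EED cKO replicate 2 (-0.59, adjusted p = 0.0755), without EED cKO replicate 4 (-0.58, adjusted p = 0.102) and without control replicate 2 (-0.70, adjusted p = 0.0685). It was also lost with median centring (-0.60, adjusted p = 0.0664) and under the log ratio of Feature Extraction (-0.29, adjusted p = 0.631).

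Fgf20, which signals from the placode to the dermal cells that condense below it, read 2.01, 1.68, 1.65 and 2.11 in control and 1.44, 0.98, 1.54 and 0.78 in EED cKO. No EED cKO array reached the lowest control array, and the lowest were the 2 arrays with the sample in Cy5. The difference was -0.68 (SE 0.16, adjusted p = 0.0154), or 62.5% of control, and a second probe gave -0.50 (adjusted p over probes = 0.0292). Without EED cKO replicate 4 the difference was -0.57 and the call was lost (adjusted p = 0.0534), as it was under the log ratio of Feature Extraction at -0.79 (adjusted p = 0.242). Neither Dkk4 nor Fgf20 was above background in the reference channel on any array, so their ratios are read against background there.

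**Figure D1:**
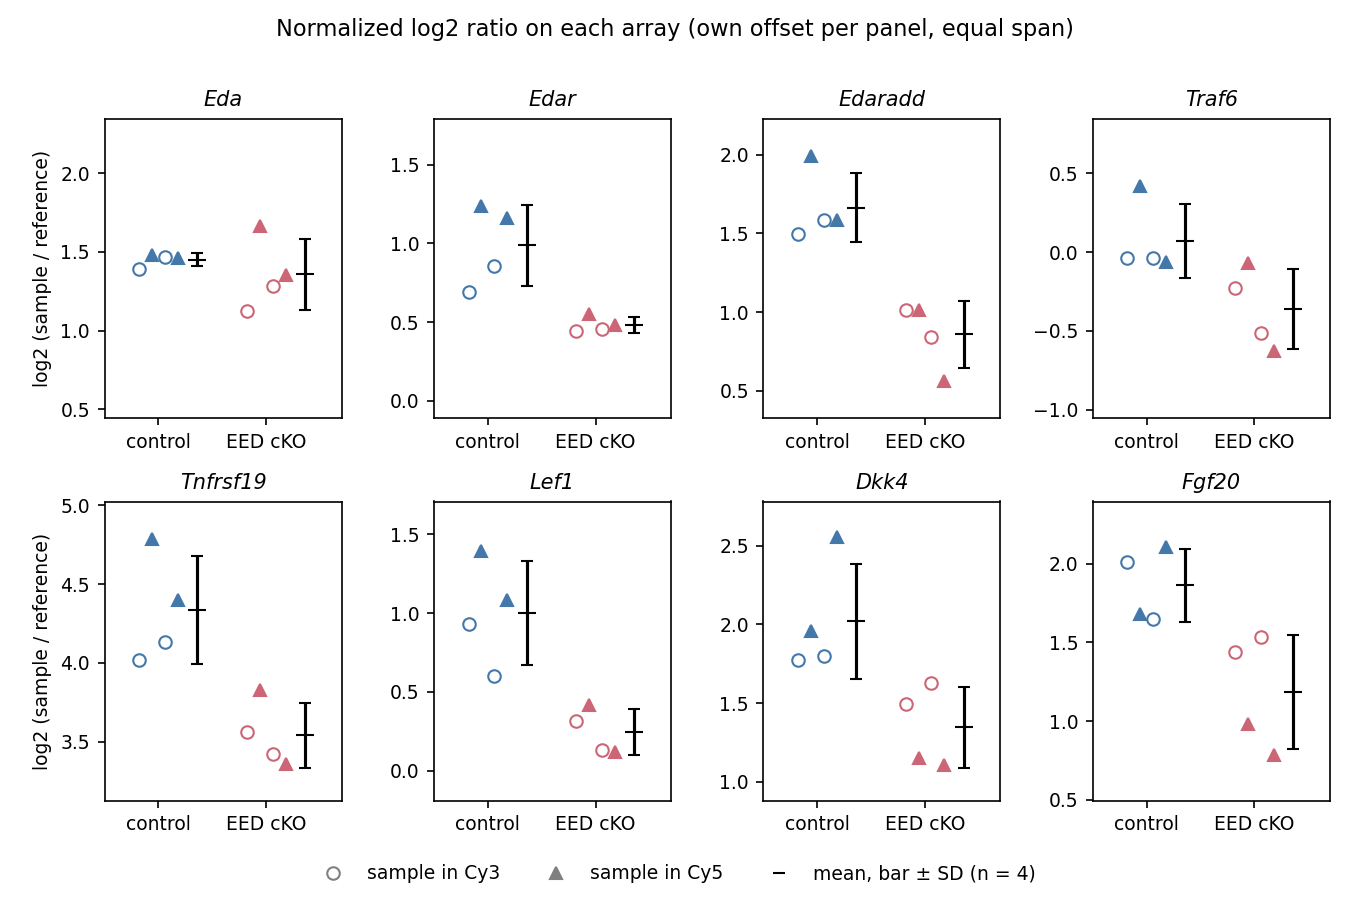
Log2 ratio of sample over reference on each of the 8 arrays for the 8 tested genes, 1 panel a gene with its own offset and the same span, circles for the sample in Cy3 and triangles for Cy5, and mean ± SD (n = 4) as a bar. In 7 panels every EED cKO array lies below every control array, and Eda overlaps.

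In 7 of the 8 tested genes, all except Eda, the EED cKO and control arrays did not overlap, which was found for 17.1% of all tested targets in either direction. For each of these 7 the exact permutation test over the 8 arrays gave p = 0.0286, two-sided, the smallest that 70 arrangements allow.

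The differences were also taken within each dye orientation. On the 4 arrays with the sample in Cy5 it was -1.12 for Dkk4, -1.01 for Fgf20, -1.002 for Tnfrsf19, -0.998 for Edaradd, -0.97 for Lef1, -0.68 for Edar and -0.53 for Traf6. On the 4 arrays with the sample in Cy3 the same genes gave -0.22, -0.34, -0.59, -0.61, -0.54, -0.33 and -0.33, and none was called, while the first 6 were called on the Cy5 arrays. Over all 23238 targets, 496 were called on the Cy3 arrays, 21.6% of them lower. On the Cy5 arrays 2465 were called, 46.5% of them lower. All 7 were lower in both orientations. Eda was -0.22 in Cy3 and 0.04 in Cy5. A genotype by dye term, added after seeing the data, passed for none of these genes after adjustment over all targets (adjusted p of 0.694 to 0.948, limma). At an unadjusted p below 0.05 it passed for Dkk4, Fgf20 and Edar, where the Cy5 difference less the Cy3 difference was -0.90, -0.67 and -0.36, and for 1514 of the 23238 targets in all.

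**Figure D2:**
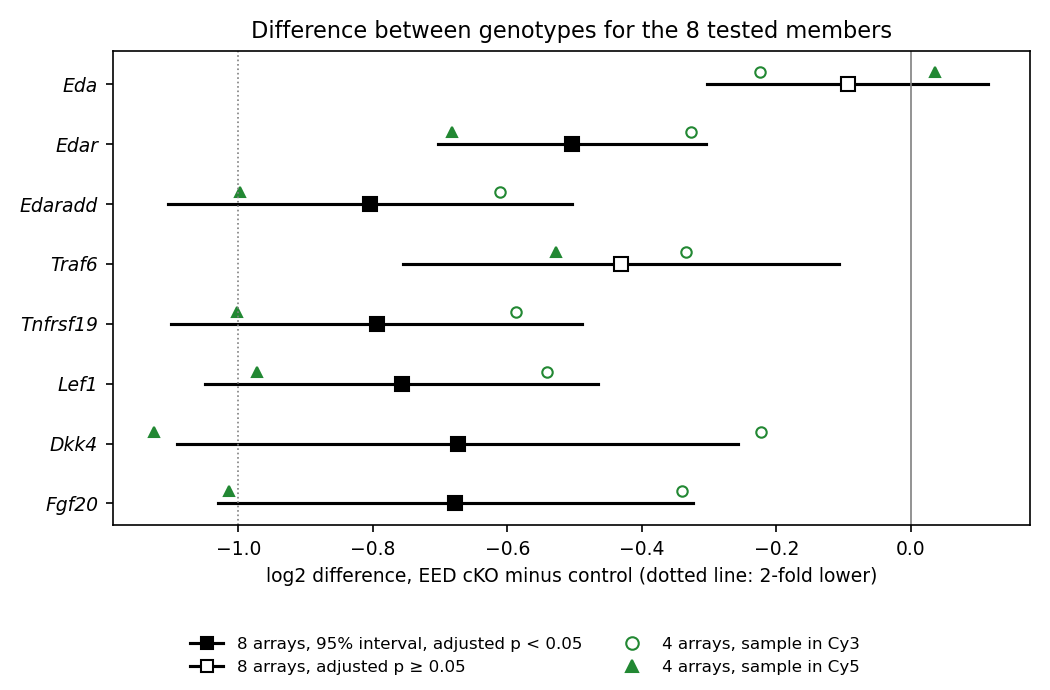
Log2 difference of EED cKO minus control for the 8 tested genes, with squares and 95% intervals from the fit to 8 arrays (filled where the adjusted p was below 0.05), and green marks for the 4 arrays of each dye orientation. The 6 filled squares lie between -0.81 and -0.50, and for every gene except Eda both dye marks are below 0, with the Cy5 mark farther from it.

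Markers of other cells were set beside these values. All 6 Merkel cell markers were higher in EED cKO, and their mean log2 ratio ran from -0.95 to -0.82 there and from -1.67 to -1.53 in control, where Atoh1, Isl1 and Sox2 were well above background on 2, 2 and 0 of the 4 arrays. These 3 passed the filter through EED cKO alone, and the other 3, Krt8, Krt18 and Krt20, were well above background on all 8 arrays and higher by 0.65, 0.47 and 1.12. Endothelial markers Pecam1 and Kdr were higher, by 0.89 and 0.62, with Cdh5 and Tek above background on no array. Of the dermal fibroblast markers 1 of 7 was higher and none lower, with mean log2 ratios of -3.12 to -2.98 in EED cKO and -3.25 to -2.96 in control. Inner root sheath markers were higher in 3 of 6 tested and lower in none, with means of 1.68 to 2.10 and of 1.05 to 2.17. The other lists gave 1 of 5 T cell, 1 of 3 other immune and 1 of 2 adipocyte markers higher, and none called among 5 melanocyte, 3 erythroid, 2 skeletal muscle and 4 differentiated epidermis markers. The part of these cells in the differences was not tested.

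The mean of 4 Y-linked genes was 1.19 and 1.02 on control replicates 2 and 3 and between -1.51 and -1.31 on the 6 other arrays. With that mean as a covariate the same 6 genes were called lower. Without control replicates 2 and 3 the difference was called for 5, all but Dkk4 (-0.82, adjusted p = 0.0544).

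The genes around the pathway were taken from overlapping lists of 97 genes, each counted once here, of which 87 were tested. Of these 12 were higher and 28 lower in EED cKO, so 46% were called, against 21.6% of all targets. The median difference of the 87 was -0.05, against 0.02 over all targets. Of all called targets 45.7% were lower, and 60.2% when the arrays were centred on the median instead of normalized by loess. Median centring left 5 of the pathway genes higher and 20 lower.

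In the list of signal transduction of Eda and NF-kB, 20 of 21 genes were tested, and 8 were lower and none higher, with a median of -0.18. At an unadjusted p below 0.05 (limma) there were 9 lower and 0 higher. At least 5556 of all 23238 targets passed that limit, in either direction. The methods' t-test after adjustment gave 4 and 0, and called 914 of all 23238 targets. The smallest adjusted p belonged to Nfkb1, the p105 and p50 subunit, at -0.65 (SE 0.09, adjusted p = 0.00161). Tab3 and Tab1, adaptors of the kinase Tak1, were lower, at -0.61 and -0.38 (adjusted p = 0.00277 and 0.00539), and so was Traf2, at -0.40 (adjusted p = 0.00321). Of the 6 other TRAF genes, 2 were lower, Traf2 and Traf4 (-0.36, adjusted p = 0.0405), and none higher, with 3 lower and 1 higher at an unadjusted p below 0.05 and 1 and 0 by the methods' t-test after adjustment.

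Genes reported downstream of Eda in skin appendages moved in both directions. Of 14 tested, 5 were lower and 3 higher, with a median of -0.08. All 5 lower genes stand in another list too and are counted in each. Shh, Wnt10a and Wnt10b are also in the placode list, and Nfkbia and Relb in that of signal transduction. Wnt10b, an early placode Wnt, was lower, at -0.77 (SE 0.08, adjusted p = 0.000527), and Shh, the placode signal to the dermis, was at -0.79 (SE 0.13, adjusted p = 0.00368). Ccn2 (Ctgf), a matrix-associated protein, was higher by 1.15 (adjusted p = 0.00124) and Bmp4, a placode inhibitor, by 0.58 (adjusted p = 0.00142). The largest difference of all pathway genes was that of the chemokine Cxcl10, named after its value was seen, which was higher by 1.77 (SE 0.36, adjusted p = 0.00937).

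Other placode and hair germ genes gave 9 lower and 2 higher of 21, with a median of -0.27 that became 0.05 with the Feature Extraction log ratio. Axin2, a feedback inhibitor induced by Wnt, was lower, at -0.84 (adjusted p = 0.00118), and Sp5, a transcription factor induced by Wnt, was at -0.72 (adjusted p = 0.00132). Trps1, a GATA-type repressor of transcription, was higher by 1.19 (SE 0.10, adjusted p = 0.000117). With Cxcl10 and Ccn2 it was among the 3 pathway genes that changed at least 2-fold, all higher.

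The relatives and partners of Lef1 included 5 lower and none higher of 12, with a median of -0.22. At an unadjusted p below 0.05, 6 were lower and 0 higher, and at least 5556 of 23238 targets passed that limit in either direction. The methods' t-test after adjustment gave 1 and 0, and called 914 of all 23238 targets. The corepressor Tle3 was lower, at -0.79 (adjusted p = 0.00341), Bcl9 and Bcl9l, which bind beta-catenin, were at -0.71 and -0.44 (adjusted p = 0.00474 and 0.0114), and Ctnnb1, beta-catenin itself, was at -0.52 (adjusted p = 0.0106). The Tcf genes Tcf7, Tcf7l1 and Tcf7l2 differed by -0.11, -0.27 and 0.12 and did not pass (adjusted p of 0.113 to 0.397). Around Dkk4, Kremen2, Lrp6 and Kremen1, receptors that bind Dkk proteins, were lower, at -0.81, -0.57 and -0.39, and Lrp5 was higher by 0.24. Of 8 genes in that list 6 were tested, and Dkk1 and Dkk2 were above background on no array. The median of the 6 was -0.13 and became 0.09 with the Feature Extraction log ratio. Around Fgf20, 3 of 5 genes were tested, of which Fgfr3 was lower, at -0.27 (adjusted p = 0.02) and Fgfr1 higher by 0.35 (adjusted p = 0.0369).

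The TNF receptor family beyond the 3 receptors above was the list with a median above 0, at 0.16, which became 0.00 with median centring. Of 18 tested genes, 5 were higher and 2 lower. Tnfrsf12a (Fn14), the receptor of Tweak, was higher by 0.85 (SE 0.11, adjusted p = 0.00116), the lymphotoxin receptor Ltbr by 0.65 (adjusted p = 0.00277) and Tnfrsf11b, the decoy osteoprotegerin, by 0.47 (adjusted p = 0.00422). Tnfrsf21, a death receptor, was lower, at -0.52 (adjusted p = 0.0038).

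**Figure D3:**
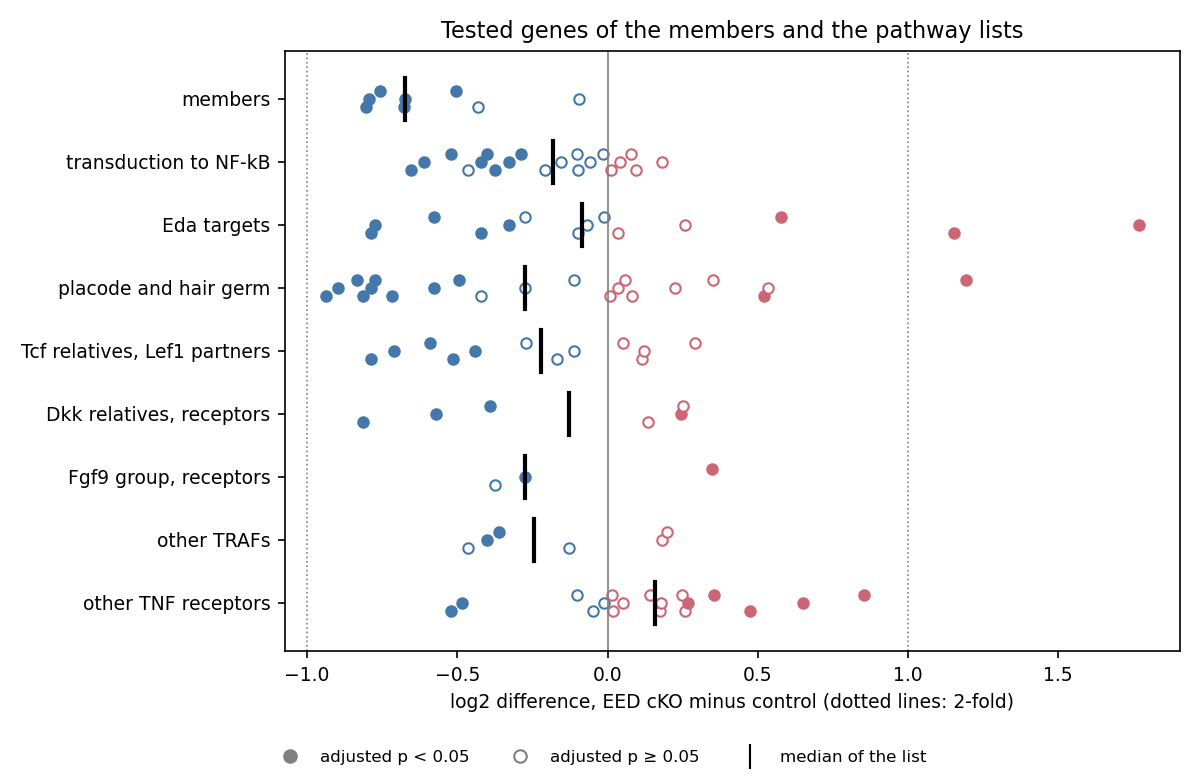
Log2 difference of EED cKO minus control for each tested gene of the 9 genes followed here and of 8 pathway lists, filled where the adjusted p was below 0.05, with a bar at each list's median. The 8 tested genes have a median of -0.68, the lists range from -0.27 to 0.16, and 3 genes lie beyond a 2-fold rise.

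The genes whose ratios followed each tested gene most closely over the 8 arrays were sought among all tested genes with a symbol. They were Drosha (Pearson r = 0.996), Cherp and Tln1 for Edar, and Tle3 (0.996), Ssrp1 and Sf3b3 for Edaradd. Tnfrsf19 was nearest to Camsap1 (0.997), Eif4ebp3 and Atp6v0a1, Lef1 to Spen (0.989), Supt16 and Ssr1, and Traf6 to Cdk8 (0.988), Sec61a1 and Eif3c. Among the nearest to Dkk4 were Taf2 (0.983) and Maml2, and Fgf20 was nearest to Dnal4 (0.979), Birc6 and Dcps. For Eda they were Olfr1395 (0.931), Zfp750 and Ubald2. Each r is a description over 8 arrays that share genotype and dye.

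**Figure D4:**
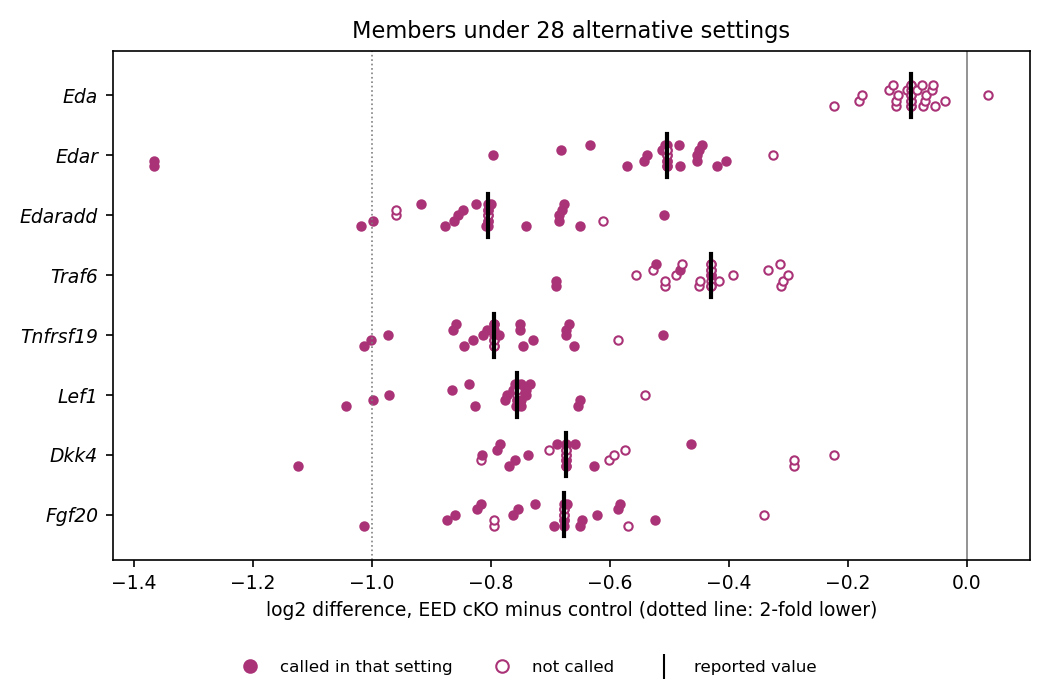
Log2 difference of the 8 tested genes under 28 other settings of the processing or fit, filled where the gene was called there, with the reported value as a bar. For 7 genes every setting lies below 0, Eda crosses 0 in 1 setting, and of the 6 called genes Dkk4 is called in the fewest settings, 18 of 28.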

How the data were processed

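The members and gene lists were chosen with earlier results of these data known. The authors scanned 8 two-colour Agilent arrays and deposited, per the file headers, Feature Extraction output (version 12.0.1.1) with spot and background intensity for each channel and a Cy5 over Cy3 ratio as log10. The deposited series table holds log2 ratios, within 7.33e-06 of the processed sample over reference ratio, not centred.

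Median spot intensities were corrected by normexp (offset 50) and loess in R 4.3.3 with limma 3.58.1, leaving out control and outlier spots, and turned to sample over reference. Probes were named through RefSeq (GRCm38.p6), which matched 28026 of the 29796 probes that carry an accession. A probe had to pass the software's background test for the sample's channel on 3 of 4 arrays of a genotype, and the brightest passing probe stood for its gene. No value of the 9 genes was missing. Genotype was fitted with dye (lmFit, eBayes), with Benjamini-Hochberg adjustment over 23238 targets. A gene was called at an adjusted p below 0.05. The fit was tried on simulated log2 ratios with known changes, in far fewer genes than were called here, and that outcome is not given. The number of arrays limits the precision. The labels call the samples biological replicates without naming what each number stands for, and p-values measure the spread between these samples.

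Same-numbered arrays of the 2 genotypes deviated together (r = 0.489, 0.679, 0.327 and 0.364 across genes), and share the dye. For EED cKO replicate 3, a control array of another number gave a higher r, 0.413. With the dye removed r was -0.144 to 0.23. The text names all 9 genes, Eed, up to 4 called genes with the smallest adjusted p from each list, and the 3 genes most correlated with each member (1 of them is not reported here), plus markers. Other list genes named were chosen after their values were seen. Alternatives were other background corrections, normalizations, filters, probe rules, covariates, weights and tests, each array left out, and, chosen after seeing the data, the sample channel alone.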

Additional observations from a re-analysis of the deposited data

Results flagged for a closer look

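Control replicate 2 stood apart from the other control arrays for Traf6, at a log2 ratio of 0.42 against -0.07 to -0.04. Its gap to the nearest array was 0.939 of the range of the 4 control arrays, past the 95% critical value of Dixon's test. This was 1 of 16 groups checked (8 genes in 2 genotypes), and chance alone gives about 1 in 20. The same array was the highest control array for Edar, Edaradd, Tnfrsf19, Lef1 and Eda, within the critical value.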

How the results depend on the processing

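Of 28 alternatives for each of the 8 tested genes, Aquantile left every value as it was, and the deposited table and the Feature Extraction log ratio hold nearly the same values, so the counts below hold fewer separate checks. The direction turned once, for Eda on the arrays with the sample in Cy5 (0.0355, not called). Edar was called in 25 of 28, Lef1 in 25, Tnfrsf19 in 25, Edaradd in 24, Fgf20 in 22, Dkk4 in 18, Traf6 in 5 and Eda in 0. The count of genes called lower, 6, became 4 with the Feature Extraction log ratio and with the deposited table (without Dkk4, Edaradd and Fgf20, and with Traf6), 5 with median centring (without Dkk4), 0 on the Cy3-sample arrays alone, 0 by the methods' t-test with its 2-fold limit and 1 by that test after Benjamini-Hochberg adjustment. In the same order, the calls over all 23238 targets went from 5028 to 3977, 3976, 2555, 496, 275 and 914. Of the 275, 8.36% were lower. The count changed at least 2-fold, 0, became 1 with normexp at an offset of 16 (Edaradd), 1 with the Feature Extraction log ratio and 1 with the deposited table (Edar in both), 1 with median centring (Tnfrsf19), 1 with the sample channel alone (Lef1, chosen after seeing the data) and 3 on the Cy5-sample arrays (Dkk4, Fgf20 and Tnfrsf19). Pathway genes higher, 12, became 5 with median centring, 5 on the Cy3-sample and 5 on the Cy5-sample arrays, and 3 and 4 by the methods' t-test with its fold limit and after adjustment. Pathway genes lower, 28, became 17 with the Y-linked covariate, 18 without control replicates 2 and 3, 2 on the Cy3-sample arrays, and 0 and 10 by that t-test. With each array left out in turn, 4 to 6 genes were called lower, 0 higher and 0 at 2-fold, with 8 to 12 pathway genes higher and 20 to 31 lower. The fit with the replicate number as a block gave 7 genes lower, 0 higher and 0 at 2-fold, with 14 pathway genes higher and 31 lower. It added Traf6 and changed no other call among the 8 genes. Of the 40 called pathway genes 1, Bmp2, had the opposite sign with the Feature Extraction log ratio. The causes were not tested. With 2 arrays a genotype in each dye orientation, the Cy3 and Cy5 subsets hold fewer arrays. Dim probes limit Edar, Edaradd, Dkk4 and Fgf20. Under the log ratio of Feature Extraction, which has no offset, their differences were -1.37, -0.96, -0.29 and -0.79. With the offset they were -0.50, -0.81, -0.67 and -0.68. With normexp at an offset of 16 they were -0.80, -1.02, -0.78 and -0.82. That smaller offset brought Edar, Edaradd and Fgf20 nearer to their Feature Extraction values and Dkk4 farther from its own. What set the Feature Extraction values apart was not tested.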
